A study of Mus musculus with 48 samples.

Results

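The infarct and remote zones of newborn mouse hearts were compared through H3K27 acetylation (H3K27ac), a histone mark of active promoters and enhancers, in the mononuclear phagocytes (MPCs) that each zone held. The comparison took 6 of the 42 libraries with a file, out of 48 labelled samples: the 3 infarct zone (IZ) and the 3 remote zone (RZ) libraries of hearts infarcted on postnatal day 1 (P1). They were chosen by their labels, and each IZ library was set against the RZ library of the same day and replicate number. These 3 pairs were 1 pair taken 3 days after surgery, called the day 3 pair, and 2 pairs taken 7 days after surgery, called day 7 pair no. 1 and day 7 pair no. 2.

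All libraries came from C57BL/6 mice whose left anterior descending coronary artery was ligated (MI) or that had a sham operation at P1 or P10. Per the study's methods, pups of both sexes were used and the same zone of several hearts was pooled, so a library stands for a group of hearts and not for 1 animal. CD45+F4/80+ cells without the dead-cell dye 7AAD were sorted and profiled with CoBATCH, a single-cell form of ChIP-seq in which antibody-bound transposase cuts and tags the marked chromatin. The files hold no cell names, so all cells of a library were counted together, and here fewer cells of a type and less signal per cell cannot be told apart. The libraries used for comparison were the 3 border zone (BZ) libraries of the same P1 MI hearts, the 6 IZ and RZ libraries of P1 sham hearts, and the 8 IZ and RZ libraries of P10 MI hearts.

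A P1 mouse heart can regrow muscle after infarction, and a P10 heart heals mainly by scar. Cardiac macrophages include long-lived resident cells of embryonic origin, marked by genes such as Lyve1, Timd4, Folr2 and Cd163, and cells that arise from blood monocytes, which express Ly6c2 and Ccr2 and enter injured muscle. Acetylation at H3K27 marks regulatory DNA in use, so the number of read pairs over a gene and its surroundings gives a view of its regulatory activity but is not a measure of its RNA.

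The IZ libraries held 692981, 634784 and 87603 unique read pairs for the day 3 pair and day 7 pairs no. 1 and no. 2, and the RZ libraries 370105, 479502 and 73087. Day 7 pair no. 2 was thus the shallowest of the 3, and 25.8% and 31.4% of the lines in its 2 files were repeats that were dropped. Both libraries of the day 3 pair were read on the same 4 flow cells, as were both of day 7 pair no. 2, while day 7 pair no. 1 shared 1 flow cell that held 16.6% of its IZ and 43.0% of its RZ pairs. The share of pairs on the Y chromosome was near in the 2 zones of a pair and different between pairs, at 0.0175% and 0.0146%, then 0.00079% and 0.00063%, then 0.00571% and 0.00684%. The Y shares of the day 7 libraries rest on very few pairs, so how near their zones are cannot be judged from them. The share on the X chromosome was 1.82% and 1.77% in the day 3 pair, 3.34% and 2.88% in day 7 pair no. 1, and 1.71% and 2.19% in day 7 pair no. 2.

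Macrophage genes carried the mark in every library. Adgre1, which encodes F4/80, had 218, 214 and 263 CPM in the 3 IZ libraries and 226, 228 and 306 in the RZ libraries. Csf1r, the receptor for the macrophage growth factor CSF1, had 315, 338 and 416 in IZ and 421, 351 and 120 in RZ. The zones overlapped for both genes. CPM are the read pairs over a gene's window, which runs from 50 kb before its start to 30 kb behind its end, scaled to the library's total of pairs and its TMM factor. The fitted IZ minus RZ difference was -0.09 ± 0.19 (SE) on the log2 scale for Adgre1 and 0.04 ± 0.24 for Csf1r, over 3 IZ and 3 RZ libraries. Both changed sign under an alternative, Adgre1 to 0.03 with pairs in regions only and Csf1r to -0.02 with the pool as a fixed block. Summed over the 8 macrophage identity genes, the log2 ratio of IZ to RZ was 0.02 (-0.098 to 0.145) in the day 3 pair. It was -0.14 (-0.259 to -0.011) in day 7 pair no. 1 and 0.06 (-0.209 to 0.328) in day 7 pair no. 2. The values in brackets are counting intervals, which cover counting error only. All 8 genes lay below 0 in day 7 pair no. 1, and 3 in each of the other pairs. Whether lower sums of other lists in day 7 pair no. 1 share this lower level was not tested. The share of pairs that fell in regions of high H3K27ac was 43.5% and 46.5% in the IZ and RZ of the day 3 pair, 33.0% and 40.1% in day 7 pair no. 1 and 54.0% and 53.7% in day 7 pair no. 2.

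No gene window separated the zones of P1 MI hearts once all windows were taken into account. The test was limma voom across 16157 windows and 42 libraries with the pool as a random block, and 0 windows (0.0%) passed an adjusted p of 0.05. At an unadjusted p under 0.05 there were 572 windows (3.54%), 315 of them higher and 257 lower in the IZ. The alternative test, limma-trend, also gave 0 windows, with 896 at an unadjusted p under 0.05. The count rested in part on day 7 pair no. 1: it was 7 without the IZ library of that pair, 2 without its RZ library and 5 without both, and 0 without both libraries of either other pair. The smallest adjusted p was 0.996 and the median SE of the difference was 0.30 on the log2 scale. Over 11951 regions of high H3K27ac 0 (0.0%) passed with limma voom, where limma-trend gave 1. With limma voom 504 regions had an unadjusted p under 0.05, and the median SE was 0.60. The same test gave 0 windows at day 3 alone, with 405 at an unadjusted p under 0.05, and 0 at day 7 alone, with 647. At day 3 there was 1 library per zone, so that p-value takes the spread from the other groups. Nothing in the labels says how the pools differ beyond their number, so the p-values measure the spread between these libraries.

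**Figure D1:**
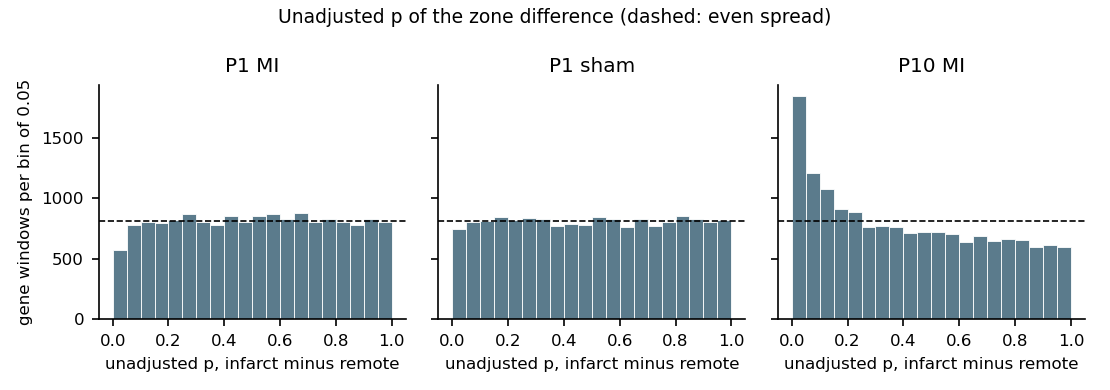
Number of gene windows (vertical axis) in each 0.05-wide bin of the unadjusted p of the infarct minus remote zone difference (horizontal axis) for P1 MI, P1 sham and P10 MI hearts; the dashed line is the level of an even spread. The first bin holds 572 windows in P1 MI, 744 in P1 sham and 1850 in P10 MI hearts.

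The same zones of P1 sham hearts gave 744 windows at an unadjusted p under 0.05, and P10 MI hearts gave 1850, with 0 windows passing the adjusted threshold in either. Over regions 7 passed in P10 MI hearts, 6 higher and 1 lower in the IZ, with a smallest adjusted p of 0.00227 (limma voom), against 0 in P1 sham and 0 in P1 MI hearts. When the zone difference itself was compared, 0 windows passed for P1 MI less P1 sham, with 728 at an unadjusted p under 0.05, and 0 for P10 MI less P1 MI, with 587. For regions these 2 tests also gave 0, with 513 and 560. All 3 P1 MI pairs lay on the other side of 0 from all 3 sham pairs in 488 windows (3.02%) and 392 regions (3.28%), and Mgl2 and Vegfa were among these windows. The P10 MI hearts had 4 libraries per zone and a median SE of 0.25, against 3 and 0.30 in P1 MI hearts.

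The zone differences of the 3 pairs had little in common across windows. Among the 4041 windows with the most pairs, Pearson's r between the pairs' IZ minus RZ differences was 0.02 for the day 3 pair against day 7 pair no. 1, 0.11 for the day 3 pair against day 7 pair no. 2, and 0.004 between the 2 day 7 pairs. The windows share libraries within a pair, and windows that overlap share reads, so these are descriptions across windows and not tests across animals. Higher values in the IZ of all 3 pairs were seen in 2054 windows (12.7%) and lower values in 2113 (13.1%).

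The differences of the day 3 pair had a higher r with 3 of the 4 P10 MI pairs than with either day 7 pair of P1 hearts. Across the same 4041 windows they had r = 0.48 with P10 MI day 3 pair no. 3, 0.30 with P10 MI day 7 pair no. 1, 0.23 with P10 MI day 7 pair no. 2 and 0.05 with P10 MI day 3 pair no. 2. The values of r with the 3 P1 sham pairs were 0.03, -0.13 and 0.16. Over all 16157 windows r was lower with the P10 MI pairs, at 0.22, 0.12, 0.10 and 0.03 in the same order. With the 2 day 7 pairs of P1 hearts it was 0.004 and 0.05 there. The 4 flow cells of the P1 day 3 pair were also those of P10 MI day 7 pair no. 1, and none was shared with P10 MI day 3 pair no. 3. Day 7 pair no. 1 had r between 0.06 and 0.08 with the 4 P10 MI pairs across the 4041 windows. Over all 16157 windows its r ran from -0.001 with P10 MI day 7 pair no. 2 to 0.13 with P10 MI day 3 pair no. 2. The window-by-window test of day 7 less day 3 in P1 MI hearts found 0 windows at an adjusted p of 0.05 and 458 at an unadjusted p under 0.05, and no gene was shown to differ between the days.

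**Figure D2:**
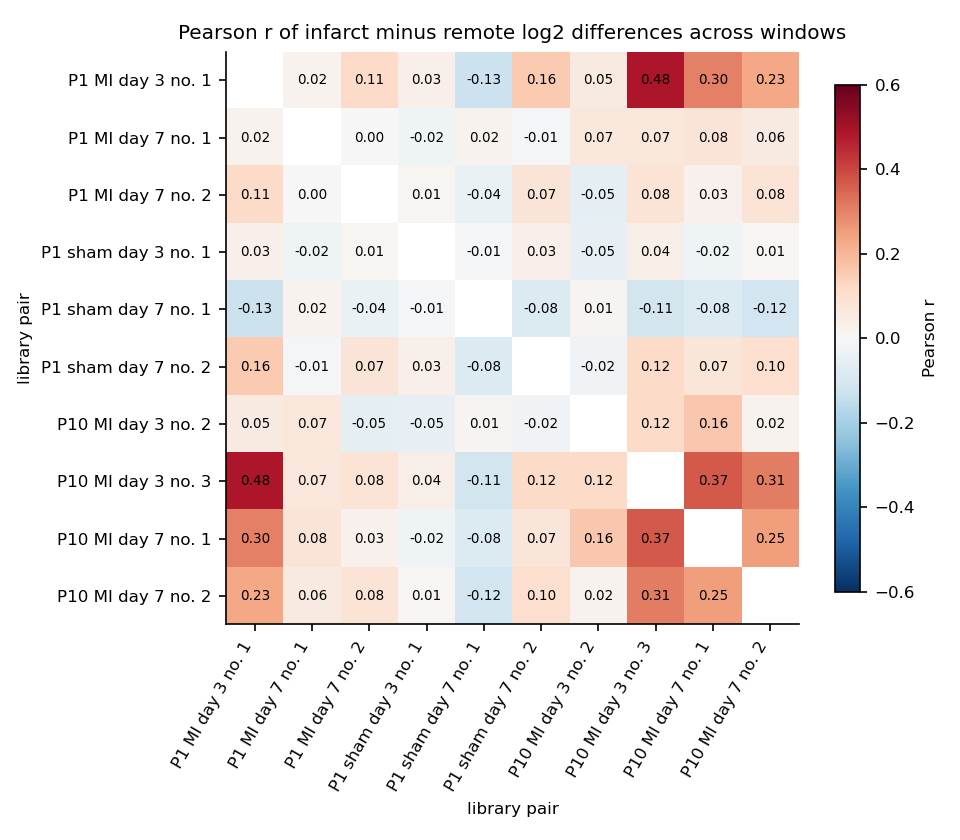
Pearson's r (colour and number) between the infarct minus remote log2 differences of every 2 library pairs across the 4041 best covered gene windows; both axes list the 3 P1 MI, 3 P1 sham and 4 P10 MI pairs. The P1 MI day 3 row holds 0.48, 0.30 and 0.23 with 3 of the P10 MI pairs, and 0.02 and 0.11 with the P1 MI day 7 pairs.

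Resident macrophage genes carried less H3K27ac in the IZ of the day 3 pair. Over the 12 genes of that list, the summed level was 1000 CPM in the IZ, 1530 in the BZ and 1630 in the RZ at day 3. In day 7 pair no. 1 it was 1080, 977 and 1360, and in day 7 pair no. 2 it was 1450, 1160 and 1290. The log2 ratio of IZ to RZ was -0.70 (95% counting interval -0.86 to -0.55) at day 3, -0.34 (-0.50 to -0.18) in day 7 pair no. 1, and 0.17 (-0.22 to 0.56) in day 7 pair no. 2. These exact Clopper-Pearson intervals cover counting error only and say nothing of the spread between pools. Of the 12 genes, 11 lay below 0 in the day 3 pair, 10 in day 7 pair no. 1 and 5 in day 7 pair no. 2.

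In the fit over all 3 pairs, the 12 resident genes all had a difference below 0, with a median of -0.38 beside 0.0 over all windows. In that fit day 7 pair no. 1 weighed more than the shallower pair no. 2, where 5 of the 12 genes lay below 0. The median was -0.25 without either library of the day 3 pair, -0.22 without the RZ library of day 7 pair no. 1 and -0.07 without both libraries of that pair. None passed the adjusted threshold, 4 were lower in the IZ of all 3 pairs, where 13.1% of all windows were, and only Cd163 had an unadjusted p under 0.05. The same list had a median of -0.59 in P10 MI hearts, with 12 of 12 below 0 and 9 lower at an unadjusted p under 0.05, where 5.68% of all windows were lower at that level. In P1 sham hearts the median was -0.23.

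**Figure D3:**
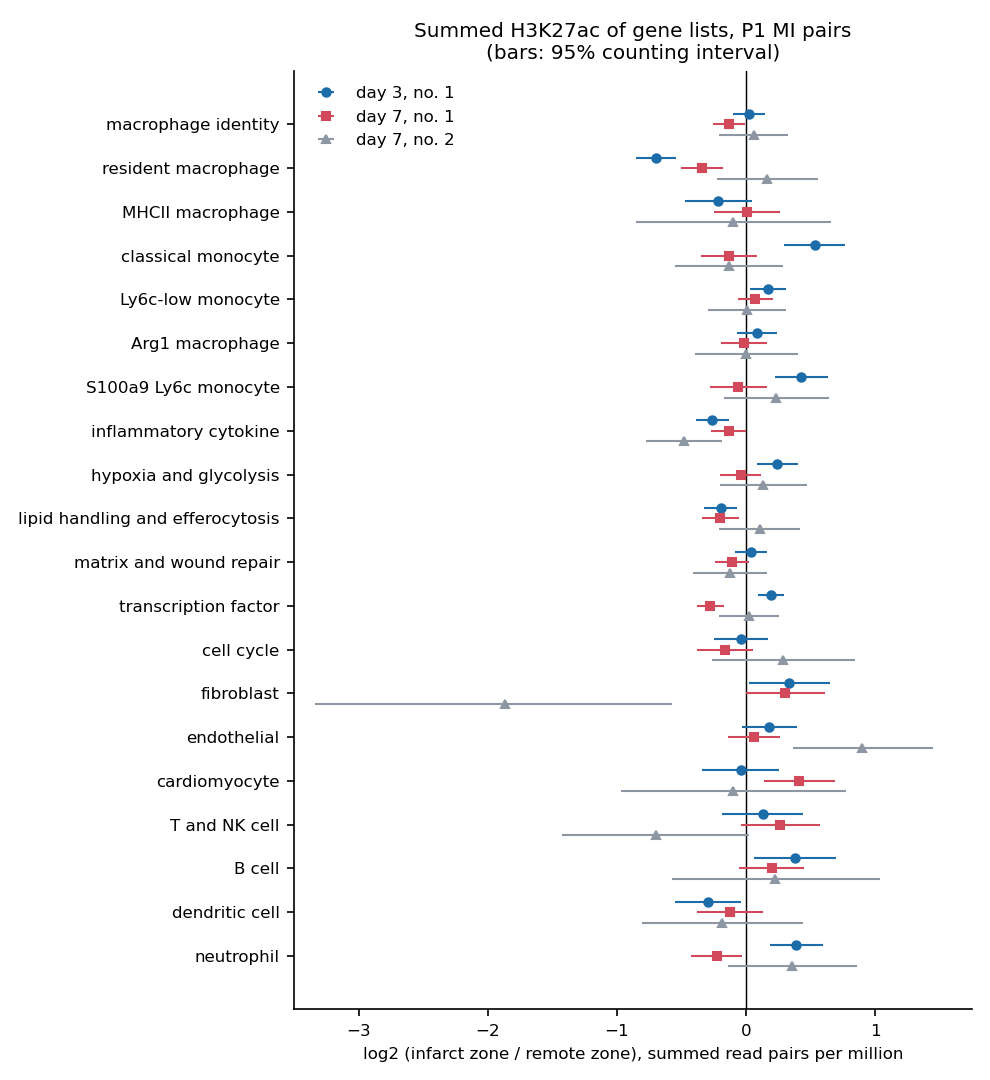
Log2 ratio of infarct to remote zone (horizontal axis) of the CPM summed over each of 20 gene lists (vertical axis), 1 point per P1 MI pair, with bars for the 95% counting interval. The resident macrophage points lie at -0.70, -0.34 and 0.17, the classical monocyte points at 0.53, -0.13 and -0.13.

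Cd163, the scavenger receptor for haemoglobin-haptoglobin complexes, had 39.2, 50.5 and 76.7 CPM in the IZ and 92.8, 78.0 and 106 in the RZ. Every IZ library lay below every RZ library. The closest were the IZ of day 7 pair no. 2 at 76.7, which rests on 7 pairs, and the RZ of day 7 pair no. 1 at 78.0. The fitted difference was -0.82 ± 0.36 (SE, n = 3 per zone, limma voom, unadjusted p = 0.0306, adjusted p = 0.996). Without either library of the day 3 pair it was -0.61, without the IZ library of day 7 pair no. 1 it was -0.53 (unadjusted p = 0.461), and counting only pairs in regions gave -0.49 (unadjusted p = 0.252). The BZ libraries lay between the zones of their own pair, at 69.0, 64.3 and 92.9. Windows with the 3 IZ libraries below the 3 RZ libraries made up 3.45% of all windows, and windows lower in all 3 pairs with an unadjusted p under 0.05 made up 1.31%.

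C1qa, a chain of the complement protein C1q whose window also holds its neighbours C1qb and C1qc, had 93.4, 103 and 32.9 CPM in the IZ and 186, 115 and 279 in the RZ. The zones did not overlap, but the third pair rests on 3 pairs in the IZ and 21 in the RZ. Mgl2, a C-type lectin of tissue macrophages, had 50.1, 69.7 and 21.9 in the IZ against 110, 95.4 and 66.5 in the RZ. It was lower in each pair, although the zones overlapped. The fitted differences were -0.69 ± 0.37 for C1qa and -0.78 ± 0.42 for Mgl2, with unadjusted p-values of 0.0739 and 0.0694. These calls moved with the counting: with pairs in regions only the differences were -1.07 (unadjusted p = 0.00749) and -1.18 (0.00836), and with scaling to all pairs -0.79 (0.0335) and -0.84 (0.0432). Without the IZ library of day 7 pair no. 1 they were -1.77 and -1.49, and C1qa was -1.48 without its RZ library.

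Mrc1, the mannose receptor, and Lyve1, a hyaluronan receptor, were not lower in every pair. Mrc1 had 131, 139 and 230 CPM in the IZ and 258, 197 and 120 in the RZ, so that it was lower in the IZ of the first 2 pairs and higher in the third. Lyve1 had 126, 95.8 and 339 in the IZ and 183, 95.4 and 173 in the RZ. In the fit the differences were -0.51 ± 0.32 and -0.06 ± 0.28. Without the RZ library of day 7 pair no. 1 Mrc1 was 0.02, and without the IZ library of that pair Lyve1 was 0.88 (unadjusted p = 0.0138), with 0.12 when only pairs in regions were counted. Timd4, a receptor for phosphatidylserine on dying cells, had 23, 33.1 and 0 in the IZ and 35.1, 34.7 and 53.2 in the RZ. The 0 in the IZ of day 7 pair no. 2 allows up to 3 pairs, or 32.9 CPM at that depth. Its fitted difference ranged from -2.11 without the IZ library of day 7 pair no. 1 to -0.34 without that of day 7 pair no. 2.

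Genes for MHC class II, which present antigen on a part of the resident cells and on monocyte-derived cells, had summed ratios whose intervals all include 0. The 5 genes of that list lie in 3 stretches of the genome, and their summed log2 ratio was -0.22 (counting interval -0.48 to 0.04) at day 3, 0.006 (-0.25 to 0.27) in day 7 pair no. 1 and -0.10 (-0.85 to 0.66) in day 7 pair no. 2. In the 3 pairs 5, 2 and 4 of the 5 genes lay below 0. In all 3 pairs 2 were lower, where 13.1% of all windows were.

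**Figure D4:**
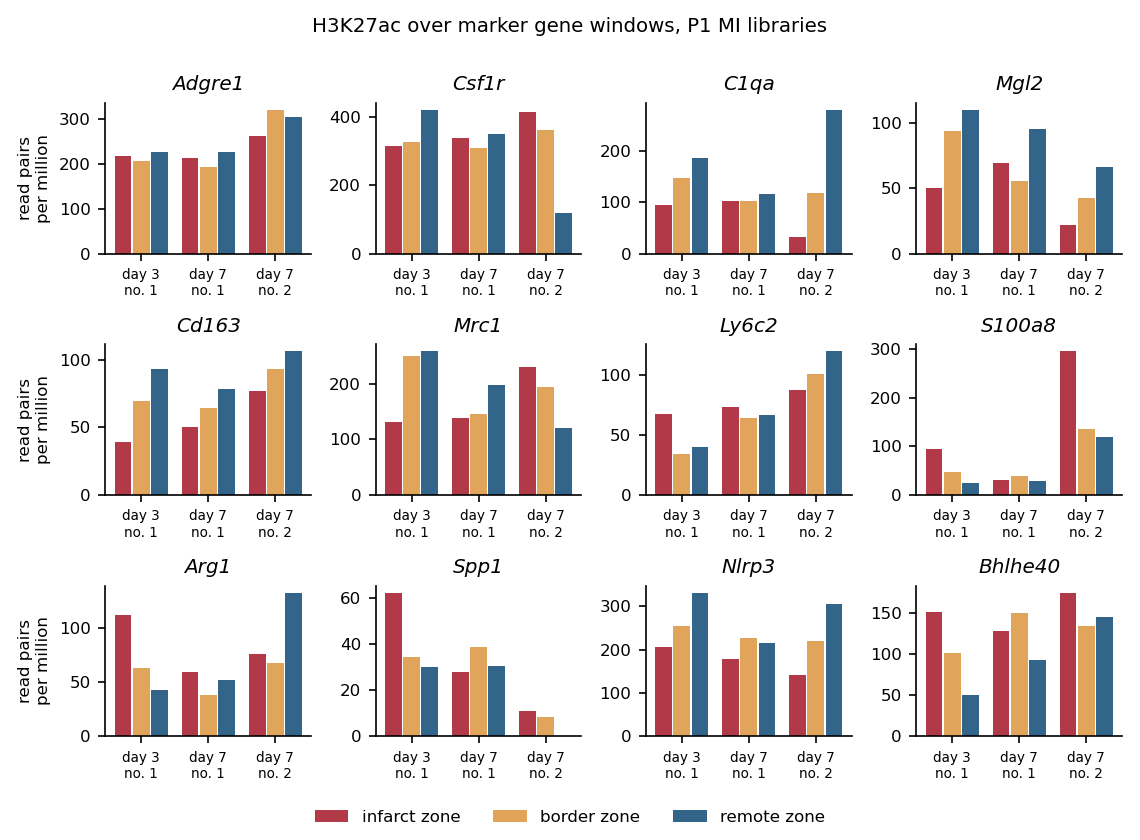
CPM (vertical axes, each from 0) over the windows of 12 marker genes in the infarct, border and remote zone libraries (bars) of the 3 P1 MI pairs (horizontal axes). C1qa, Mgl2, Cd163 and Nlrp3 are lower in the infarct than in the remote zone of every pair, and S100a8 and Bhlhe40 are higher, while Arg1 is higher in 2 pairs and lower in the third.

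Classical monocyte genes carried more H3K27ac in the IZ of the day 3 pair, which is 1 library per zone with no replicate. The 6 genes summed to 739 CPM in the IZ, 598 in the BZ and 512 in the RZ at day 3, a log2 ratio of 0.53 (0.30 to 0.77). At day 7 the ratio was -0.13 (-0.35 to 0.09) in pair no. 1 and -0.13 (-0.55 to 0.29) in pair no. 2. The 5 neutrophil genes had a ratio of 0.39 (0.18 to 0.60) at day 3, with 5 of 5 above 0, and their part in the monocyte values was not tested. All 6 monocyte genes lay above 0 at day 3, 3 of 6 in day 7 pair no. 1 and 2 of 6 in day 7 pair no. 2. The median of the fitted differences was 0.07, but it was -0.14 without either library of the day 3 pair, and 0.40 and -0.29 without the IZ and the RZ library of day 7 pair no. 1. In P1 sham hearts the median was 0.14.

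Ly6c2, the surface antigen that defines classical monocytes, had 67.6, 73.2 and 87.6 CPM in the IZ and 40.1, 67.2 and 120 in the RZ. Ccr2, the chemokine receptor that monocytes use to leave the marrow, had 254, 183 and 361 in the IZ and 223, 215 and 412 in the RZ. The zones overlapped for both genes, and the fitted differences were 0.27 ± 0.32 and -0.09 ± 0.24. Without the RZ library of day 7 pair no. 1 they were -0.16 and -0.49, and Ccr2 was 0.34 without the IZ library of that pair. The Ly6c-low monocyte list, with Nr4a1 and Cx3cr1, had a summed log2 ratio of 0.17 (0.03 to 0.31) at day 3 and of 0.07 and 0.004 in the day 7 pairs.

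The S100a9 Ly6c monocyte list, whose genes include the alarmins S100a8 and S100a9 and the chemokine receptor Cxcr2, had a summed log2 ratio of 0.43 (0.22 to 0.63) at day 3, -0.06 (-0.28 to 0.16) in day 7 pair no. 1 and 0.23 (-0.17 to 0.64) in day 7 pair no. 2. Of its 9 genes, 4 were higher in the IZ of all 3 pairs, where 12.7% of all windows were, and 0 were lower in all 3. The study defined this monocyte class on these samples, so the list is not independent evidence of its direction. In P10 MI hearts its median difference was 0.84, with 7 of 9 genes higher at an unadjusted p under 0.05, beside 0.27 and 0 of 9 in P1 MI hearts. The P1 MI median was 0.06 without either library of the day 3 pair, 0.51 and 0.02 without the IZ and the RZ library of day 7 pair no. 1, and 0.05 when only pairs in regions were counted. That last value leaves out S100a8 and S100a9, which held too few such pairs to be tested. In P1 sham hearts the median was 0.11. The background in P10 MI hearts was 5.77% of windows. None of the 9 genes passed the test of P10 less P1.

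S100a8 had 94.7, 31.4 and 296 CPM in the IZ and 25.1, 28.2 and 120 in the RZ. S100a9 had 64.9, 26.1 and 131 in the IZ and 25.1, 23.8 and 106 in the RZ. Both were higher in the IZ of each pair, the zones overlapped, and the 2 genes are neighbours whose windows share reads. The fitted differences were 0.80 ± 0.57 and 0.48 ± 0.58 (unadjusted p = 0.164 and 0.409). They rested on single libraries: without the IZ library of day 7 pair no. 1 they were 2.47 (unadjusted p = 0.00038) and 1.58, without its RZ library 0.13 and -0.40, and without the RZ library of the day 3 pair 0.26 and 0.06. Neutrophil genes, which could mark cells other than monocytes in the sort, had a summed log2 ratio of 0.39 (0.18 to 0.60) at day 3, -0.23 (-0.42 to -0.03) in day 7 pair no. 1 and 0.35 (-0.14 to 0.86) in day 7 pair no. 2. They were thus above 0 beside S100a8 and S100a9 at day 3 and below 0 in day 7 pair no. 1, and their part in the S100a8 and S100a9 values was not tested.

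Arg1, the arginase of wound-healing macrophages, had its widest gap between zones at day 3. It had 112 CPM in the IZ, 63.3 in the BZ and 42.6 in the RZ at day 3, on 83 pairs in the IZ and 17 in the RZ. In day 7 pair no. 1 the IZ had 59.2 and the RZ 52.0, and in day 7 pair no. 2 the IZ had 76.7 and the RZ 133. The direction thus differed between pairs, and the fitted difference was 0.50 ± 0.30 (unadjusted p = 0.111). It was 0.06 without either library of the day 3 pair, -0.24 without the RZ library of day 7 pair no. 1 and -0.02 when only pairs in regions were counted. At day 3 alone the log2 difference was 1.36 (counting interval of the ratio 0.63 to 2.24), with an unadjusted p of 0.0102 from the fit across all libraries and an adjusted p above the threshold.

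The rest of the Arg1 list, which marks lipid-associated and wound-repair macrophages, had no common direction. Spp1, encoding osteopontin, had 62.2, 27.9 and 11.0 CPM in the IZ and 30.1, 30.3 and 0 in the RZ, where the 0 allows up to 39.9 CPM at that depth. Trem2, a lipid receptor of macrophages, had 211, 111 and 339 in the IZ and 145, 117 and 160 in the RZ. In the fit the differences were 0.73 ± 0.59 and 0.27 ± 0.28. Leaving out 1 library gave 0.17 to 1.39 for Spp1, and for Trem2 0.10 without the IZ library of day 7 pair no. 2 (unadjusted p = 0.725), 0.14 without either library of the day 3 pair and 1.08 without the IZ library of day 7 pair no. 1 (0.00346). Over the 10 genes the summed log2 ratio was 0.08 (-0.07 to 0.24), -0.02 (-0.20 to 0.16) and 0.0 (-0.40 to 0.40) in the 3 pairs. The study defined this class on these samples too.

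Inflammatory cytokine genes summed to less in the IZ than in the RZ of all 3 pairs. The 11 genes had a summed log2 ratio of -0.26 (-0.39 to -0.14) at day 3, -0.13 (-0.27 to 0.003) in day 7 pair no. 1 and -0.48 (-0.77 to -0.19) in day 7 pair no. 2. Of the 10 genes that were tested, 4 were lower in all 3 pairs (Il1b, Ccl3, Ccl2 and Nlrp3; 13.1% of all windows were) and 1, Il18r1, was higher in all 3 (12.7%). The median of the fitted differences was -0.20, and it was -0.54 without the RZ library of day 7 pair no. 1. When only pairs in regions were counted it was -0.06, over the list genes with enough such pairs. The P10 MI median was -0.07 and the sham median -0.12.

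Nlrp3, the sensor of the inflammasome that matures IL-1 beta, had 206, 178 and 142 CPM in the IZ and 331, 215 and 306 in the RZ. Every IZ library lay below every RZ library, and the BZ libraries had 255, 227 and 220. The fitted difference was -0.51 ± 0.23 (SE, n = 3 per zone, limma voom, unadjusted p = 0.0314, adjusted p = 0.996). It was -0.42 (unadjusted p = 0.178) without either library of the day 3 pair, and -0.72 (0.12) and -0.83 (0.0187) without the IZ and the RZ library of day 7 pair no. 1. Il1b had 138, 143 and 329 in the IZ and 160, 199 and 425 in the RZ, lower in each pair, with a fitted difference of -0.39 ± 0.23, which was 0.21 and -0.93 without the IZ and the RZ library of day 7 pair no. 1. The P1 MI less sham difference of Nlrp3 was -0.32 with an unadjusted p of 0.359, so the MI and sham zone differences were not told apart.

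Genes of the hypoxia response and glycolysis summed to more in the IZ of the day 3 pair, with a summed log2 ratio of 0.24 (0.08 to 0.40), against -0.04 (-0.20 to 0.12) and 0.13 (-0.20 to 0.47) at day 7. At day 3, 7 of the 10 genes lay above 0, and Bnip3, Adm and Pdk1 lay below it. The median of the fitted differences was 0.06, and it was 0.49 and -0.10 without the IZ and the RZ library of day 7 pair no. 1. In P1 sham hearts the median was 0.03. Slc2a1, the glucose transporter GLUT1, had 195, 176 and 296 CPM in the IZ and 115, 160 and 226 in the RZ. Egln3, an oxygen-sensing prolyl hydroxylase, had 71.7, 48.8 and 175 in the IZ and 27.6, 34.7 and 26.6 in the RZ. Vegfa, the main growth factor for vessels, had 60.9, 73.2 and 54.8 in the IZ and 42.6, 54.2 and 26.6 in the RZ. These 3 of the 10 genes were higher in the IZ of every pair, as were 12.7% of all windows, and for Egln3 and Vegfa every IZ library lay above every RZ library, as in 3.82% of all windows. Day 7 pair no. 2 held 16 IZ and 2 RZ pairs for Egln3 and 5 and 2 for Vegfa. The closest Vegfa libraries had 54.8 CPM in the IZ and 54.2 in the RZ. The fitted differences of Slc2a1, Egln3 and Vegfa were 0.37 ± 0.23, 0.96 ± 0.49 and 0.51 ± 0.37, with unadjusted p-values of 0.108, 0.0581 and 0.172 (limma voom). Without the IZ library of day 7 pair no. 1 Slc2a1 had 0.67 (unadjusted p = 0.0482) and Egln3 1.97 (0.00165), without either library of the day 3 pair Slc2a1 had 0.19, and with pairs in regions only 0.54 (0.0423). Pdk1, which limits the use of pyruvate in mitochondria, was the 1 gene of the 10 that was lower in all 3 pairs, as were 13.1% of all windows, by 0.37, 0.29 and 0.83 on the log2 scale.

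The summed level of the transcription factor genes differed in direction between the 2 deeper pairs. The 12 genes had a summed log2 ratio of 0.19 (0.09 to 0.29) at day 3 and -0.28 (-0.38 to -0.17) in day 7 pair no. 1, with 0.02 (-0.21 to 0.26) in day 7 pair no. 2. At day 3, 10 of the 12 lay above 0, and in day 7 pair no. 1, 2 of 12. Bhlhe40 and Klf4 were higher in all 3 pairs and Mef2c and Klf2 lower, or 2 of 12 in each direction beside 12.7% and 13.1% of all windows. Bhlhe40, a basic helix-loop-helix repressor, had 152, 129 and 175 CPM in the IZ and 50.2, 93.2 and 146 in the RZ, higher in each pair with overlap between the zones. The fitted difference was 0.82 ± 0.36 (SE, n = 3 per zone, limma voom, unadjusted p = 0.0298, adjusted p = 0.996). It was 0.44 (unadjusted p = 0.318) without either library of the day 3 pair, and 1.05 (0.0643) and 0.45 (0.488) without the IZ and the RZ library of day 7 pair no. 1. Windows higher in all 3 pairs with an unadjusted p under 0.05 made up 1.44% of all windows.

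Genes for lipid handling and clearance of dead cells summed to less in the IZ of both deeper pairs, with summed log2 ratios of -0.20 (-0.33 to -0.07) at day 3 and -0.20 (-0.34 to -0.06) in day 7 pair no. 1, and 0.10 (-0.21 to 0.42) in day 7 pair no. 2. In each of the deeper pairs 4 of the 10 genes lay above 0. On the log2 scale of the fit 2 of 10, Lpl and Ctsl, were above 0 in all 3 pairs, as were 12.7% of all windows. Below 0 in all 3 pairs were 4 of 10, Mertk, Axl, Plin2 and Nr1h3, as were 13.1% of all windows. For Plin2 in day 7 pair no. 1 and Nr1h3 in day 7 pair no. 2 the sign rests on differences of -0.002 and -0.008, with 178 and 186 CPM in both zones. Mertk, a receptor for clearing dead cells, was lower in each pair, by 0.66, 0.22 and 0.28 on the log2 scale. Lpl, encoding lipoprotein lipase, was higher in each pair, by 0.78, 0.01 and 2.89, and the third value rests on 0 pairs in the RZ. Genes of matrix and wound repair had summed log2 ratios of 0.04 (-0.09 to 0.16), -0.11 (-0.24 to 0.03) and -0.13 (-0.41 to 0.16), and cell cycle genes of -0.04 (-0.25 to 0.17), -0.17 (-0.38 to 0.05) and 0.29 (-0.26 to 0.85). All 6 of these intervals include 0.

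Gene lists named for other cell types were also measured, and their genes need not be limited to cells outside the sort. The 7 fibroblast genes summed to 379, 394 and 76.7 CPM in the IZ and 301, 319 and 279 in the RZ, and the 6 cardiomyocyte genes to 363, 512 and 285 in the IZ and 374, 386 and 306 in the RZ. The 5 endothelial genes summed to 744, 820 and 1060 in the IZ and 657, 787 and 572 in the RZ. Pecam1 held 353, 296 and 70 of the 550, 471 and 97 IZ pairs of that list, so its level rests largely on 1 gene. None of these lists was at 0 in any library. In them 4 of 7 fibroblast, 4 of 6 cardiomyocyte and 5 of 5 endothelial genes held enough pairs to be tested, as did 16157 of all 21911 windows. A window spans a gene and its surroundings, and whether such cells were in the libraries was not tested. The summed level of the fibroblast genes was higher in the IZ of the first 2 pairs and lower in the third, which rests on 7 pairs in the IZ and 21 in the RZ. The log2 ratio of the cardiomyocyte list was -0.04 (-0.34 to 0.26), 0.41 (0.14 to 0.69) and -0.10 (-0.97 to 0.77). In day 7 pair no. 1 Ryr2 held 129 of the 294 IZ pairs and 52 of the 178 RZ pairs of that list. The ratio of that pair thus rests largely on 1 gene, at 0.995 for Ryr2 beside 0.15, 0.38 and 0.01 for Myh6, Tnnt2 and Tnni3. B cell genes had ratios of 0.38 (0.06 to 0.70), 0.20 (-0.05 to 0.45) and 0.22 (-0.57 to 1.04), T and NK cell genes of 0.13, 0.26 and -0.70, and dendritic cell genes of -0.30 (-0.55 to -0.04), -0.13 and -0.19.

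The windows with the smallest unadjusted p among those with 1 direction in all 3 pairs are described as the head of the list, since none of them passed the adjusted threshold. First among those higher in the IZ was Myzap on chromosome 9 (71504347 to 71592360, mm10), which encodes a protein of the junctions between heart muscle cells. It had 43.3, 73.2 and 54.8 CPM in the IZ and 10.0, 23.8 and 0 in the RZ, on 32, 42 and 5 pairs against 4, 11 and 0. The IZ and RZ libraries did not overlap. The leading windows were chosen by p and sign, so nothing is read from such gaps here or for those below. Over all windows the 3 IZ libraries lay above the 3 RZ libraries in 3.82% and below them in 3.45%. The fitted difference was 2.26 ± 0.52 (SE, n = 3 per zone, limma voom, unadjusted p = 0.000108, adjusted p = 0.996), and its size leans on the prior count where the RZ held 0. The 3 BZ libraries had 30.7, 77.1 and 59.1, above their own RZ library in each pair.

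Syne1, a large protein that ties the nucleus to the cytoskeleton, held more pairs. It had 130, 230 and 241 CPM in the IZ and 55.2, 121 and 120 in the RZ, and every IZ library lay above every RZ library. The fitted difference was 1.03 ± 0.30 (limma voom, unadjusted p = 0.00147). Pls3, an actin-bundling protein, Col6a4, a collagen VI chain, F2rl2, a thrombin receptor, Pard6g, a cell polarity protein, and Zfp473, a zinc finger protein, were also among the leading windows, with fitted differences from 1.41 to 2.19. Those of Pls3, Col6a4, F2rl2 and Pard6g lean on the prior count too, since the RZ library of day 7 pair no. 2 held 0 pairs. The window of Zfp473 shares reads with 7 other tested windows, Atf5 and Nup62 among them. None of the leading windows named here, Myzap and Syne1 included, could be tested with pairs in regions only. Their mean inside regions of high H3K27ac was under 10 pairs per library. Without the RZ library of day 7 pair no. 1 Zfp473 had 0.90 (unadjusted p = 0.133) and Syne1 0.89 (0.137). Myzap and Syne1 are known for roles in muscle. The cardiomyocyte list beside them was higher in the IZ of day 7 pair no. 1, largely through Ryr2, and not of the other 2 pairs. The part of that list in these windows was not tested.

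Among the 8 leading windows lower in the IZ, Rnf150 and Wdfy3 had the most pairs. Wdfy3, a scaffold for selective autophagy, had 176, 139 and 230 CPM in the IZ and 321, 197 and 532 in the RZ, and Rnf150, a RING finger protein, 200, 171 and 186 in the IZ and 361, 262 and 346 in the RZ. The zones were apart for Rnf150 and overlapped for Wdfy3. Both had a fitted difference of -0.73 ± 0.24. B3galnt1, a glycosyltransferase, had 20.3, 31.4 and 21.9 in the IZ and 87.8, 73.7 and 66.5 in the RZ, with no overlap and a fitted difference of -1.54 ± 0.44 (unadjusted p = 0.00122). Crbn, the substrate receptor of a ubiquitin ligase, Rnmt, which methylates the mRNA cap, Copb1, a coat protein of vesicles, Nle1, a ribosome assembly factor, and Dusp6, a phosphatase that turns off ERK, had fitted differences from -1.64 to -0.58. Crbn and Rnmt had 0 pairs in the IZ library of day 7 pair no. 2, and too few pairs inside regions to be tested on those alone. The smallest unadjusted p of the 8 was 0.00122 and the largest 0.00477. Without the IZ library of day 7 pair no. 1 the differences of Copb1, Wdfy3 and Dusp6 were -0.58, -0.54 and -0.36, with unadjusted p-values of 0.183, 0.198 and 0.277, and without its RZ library -1.28, -1.40 and -1.18. For Crbn and Rnmt they were -2.67 and -2.63 without that IZ library, and -0.94 and -0.75 without the IZ library of day 7 pair no. 2.

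**Figure D5:**
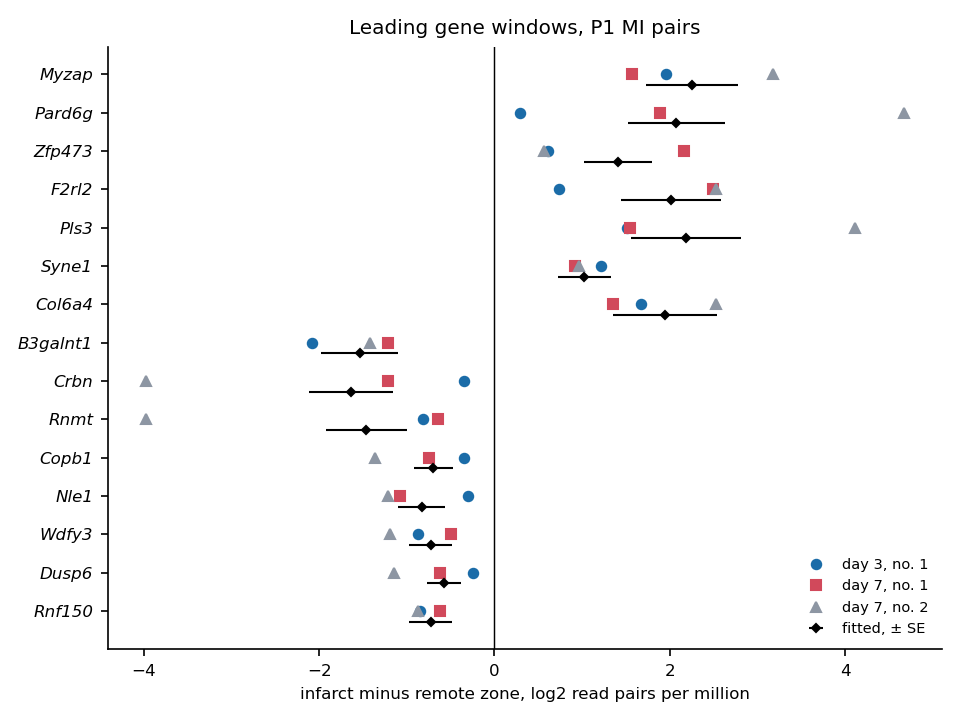
Infarct minus remote log2 difference (horizontal axis) in the 3 P1 MI pairs (coloured points) and as fitted over all pairs (black, ± SE) for 7 leading gene windows higher and 8 lower in the infarct zone (vertical axis). Myzap lies at 2.26 and B3galnt1 at -1.54 in the fit, and the day 7 pair no. 2 points lie farthest out for Myzap, Pard6g, F2rl2, Pls3, Col6a4, Crbn and Rnmt, which had 0 pairs in 1 of its libraries.

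Regions of high H3K27ac gave the same picture at finer scale and with fewer pairs each. Of the 11951 tested, 1417 (11.9%) were higher in the IZ of all 3 pairs and 1799 (15.1%) lower, and none passed. The region at the head of those higher in the IZ lies between genes on chromosome 4, from 135066001 to 135072500, and its nearest protein-coding start is that of Runx3, a transcription factor of leukocytes, from which it lies at -51401 bp. It held 18, 13 and 4 pairs in the IZ and 7, 1 and 0 in the RZ. At the head of those lower in the IZ was the promoter of Zfp110, a zinc finger gene, on chromosome 7 from 12834001 to 12835500, with 0, 2 and 0 pairs in the IZ and 4, 8 and 4 in the RZ. Libraries of the 2 zones did not overlap at either region. The fitted differences were 2.14 ± 0.61 and -2.90 ± 0.72 (SE, n = 3 per zone, limma voom, unadjusted p = 0.000605 and 9.18e-05, adjusted p = 1.0 for both).

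The sequences under these 2 regions are shown because they head the 2 directions. Each is the stretch with the most P1 MI read pairs within its region, on the plus strand of mm10 (GRCm38.p6, RefSeq), and for Zfp110 it stops where the annotated transcript begins.
Runx3 upstream region, chr4:135069977-135070276: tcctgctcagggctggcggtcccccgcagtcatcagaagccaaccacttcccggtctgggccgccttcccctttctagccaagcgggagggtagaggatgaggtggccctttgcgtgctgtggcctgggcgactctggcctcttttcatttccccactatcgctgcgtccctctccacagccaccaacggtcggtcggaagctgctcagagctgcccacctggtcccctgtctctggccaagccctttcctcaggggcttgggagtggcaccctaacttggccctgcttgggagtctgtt
Zfp110 promoter, chr7:12834646-12834760: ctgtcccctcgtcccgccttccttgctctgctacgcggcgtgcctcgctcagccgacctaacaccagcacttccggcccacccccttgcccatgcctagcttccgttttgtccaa
The Runx3 stretch held 3 pairs over the 3 IZ libraries, 5 over the BZ and 2 over the RZ, so the excess of the IZ lay elsewhere in that region. The 300 bp stretch at Zfp110 held 0 pairs over the IZ libraries, 2 over the BZ and 9 over the RZ. Searched on both strands, the 300 bp stretches of both regions held none of the motifs TGANTCA (AP-1), GAGGAAGT (PU.1), TTGCGCAA (C/EBP), NF-kB, CACGTG (E-box) or TACGTG (hypoxia response), so no base is in capitals. Over the stretches of all 11951 tested regions, cut in the same way, these motifs occurred in 8.06%, 4.16%, 0.126%, 1.51%, 7.04% and 3.74%.

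The regions that came next in the IZ lay near Slc38a2, an amino acid transporter, near Mef2a, a transcription factor known from muscle, at the promoter of the lysosomal transporter Abcb9 and near S100a10, a partner of annexin A2. Their fitted differences ran from 2.22 to 2.26, on 1 to 13 pairs in each IZ library and 0 to 4 in each RZ library. Those lower in the IZ were the promoters of Stxbp5 and Stt3b and regions nearest to Btn1a1 and Map3k8, with fitted differences from -2.16 to -1.72. Without the IZ library of day 7 pair no. 1 the Stxbp5 promoter had -1.19 (unadjusted p = 0.12), and without the RZ library of that pair the Abcb9 promoter had 1.62 (0.0643). The 10 leading regions were chosen by p and sign, so nothing is read from the fact that their IZ and RZ libraries did not overlap. Over all regions the 3 IZ libraries lay above the 3 RZ libraries in 4.94% and below them in 3.76%.

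The border zone was compared with both ends. BZ minus RZ gave 0 windows at an adjusted p of 0.05 and 597 at an unadjusted p under 0.05, and IZ minus BZ gave 0 and 603 (limma voom, 3 libraries per zone). For the resident macrophage list the BZ sum lay between the zones at day 3, at 1530, and below both in the day 7 pairs, at 977 and 1160. For the classical monocyte list the BZ sums were 598, 673 and 837, between the zones at day 3 and in day 7 pair no. 1 and below both in day 7 pair no. 2. For the S100a9 Ly6c monocyte list they were 669, 728 and 1280, against 936, 667 and 1390 in the IZ and 697, 696 and 1180 in the RZ. They thus lay below both zones at day 3, above both in day 7 pair no. 1 and between them in day 7 pair no. 2.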

How the data were processed

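H3K27ac CoBATCH libraries of sorted cardiac mononuclear phagocytes were deposited as lists of aligned reads on mm10. Per the study's methods, the authors split barcodes, trimmed with Cutadapt, aligned with Bowtie2, dropped poorly mapped reads (Samtools) and duplicates (Picard), and filtered cells by read number. The deposited score column is the mapping quality, from 21 to 44, and the other deposited columns used are the read's position and name. Cells are not named in the files. MACS2 2.2.7.1 is listed in the submitters' processing notes, and peak calls were not used here.

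Lines that were exact repeats were dropped and mates joined, which gave 18007584 read pairs from 38097100 reads in 42 libraries, from 48077 to 1008924 per library. A pair was counted at its midpoint in 21911 windows of protein-coding genes (GENCODE vM21) and in 23079 regions, made of 500 bp bins whose level, averaged over 24 equally weighted groups, was at least 4 times that of the average covered bin, merged within 1000 bp. Windows with a mean of 10 or more pairs per library (16157) and regions with 3 or more (11951) were tested with limma 3.58.1 (voom, TMM factors, R 4.3.3), with 24 group means, and the pool as a random block (correlation 0.211 for windows and 0.0569 for regions). In the contrast the P1 days were weighted by their number of library pairs. Within day 7 the fit gave deeper libraries more weight, so the 2 pairs did not count equally. P-values were adjusted by Benjamini-Hochberg over all features. CPM are pairs over the pairs on chromosomes 1 to 19, X and Y times the TMM factor.

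Pools were taken from the replicate numbers of the labels, since the methods take the zones from the same hearts. Deviations of same-numbered P1 MI day 7 libraries had a correlation of 0.289 between IZ and RZ, with only 2 numbers. Named windows and regions are the 8 windows and 5 regions per direction with the smallest unadjusted p among those of 1 sign in all 3 pairs, without overlapping windows. Genes of the 20 lists are given with values where they define their list or had 1 sign in all 3 pairs and an unadjusted p under 0.05, and the other list genes named were chosen after their values were seen. The libraries and lists were chosen with earlier results of these data known. Other scalings, filters, counting rules, block terms and left-out libraries were tried. Items withheld from the text are not reported here.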

Additional observations from a re-analysis of the deposited data

Results flagged for a closer look

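For 2 genes and 4 regions named in the text, all 3 P1 MI pairs lay on the other side of 0 from all 3 P1 sham pairs. The same held for 3.02% of all windows and 3.28% of all regions, or 11.7% of the windows and 12.2% of the regions of 1 sign in all 3 P1 MI pairs. The fitted IZ minus RZ difference of Mgl2 was -0.78 in P1 MI and 0.34 in P1 sham hearts (limma voom test of the difference, unadjusted p = 0.0592), and that of Vegfa was 0.51 and -0.82 (unadjusted p = 0.0398). The region near Slc38a2 on chromosome 15 had 2.23 and -1.16 (unadjusted p = 0.000745) and the region near Mef2a on chromosome 7 had 2.26 and -1.81 (unadjusted p = 3.76e-05). The Stxbp5 promoter on chromosome 10 had -1.91 and 0.41 (unadjusted p = 0.00419), and the region nearest to Map3k8 on chromosome 18 had -2.11 and 1.3 (unadjusted p = 0.000369). None passed after adjustment over all features, where the smallest adjusted p of MI less sham was 0.995 for windows and 0.45 for regions, and the regions were named for their difference in the MI pairs.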

How the results depend on the processing

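The count of windows past the adjusted threshold stayed at 0 in the P1 MI comparison of IZ and RZ under every alternative scaling, filter, counting rule and block term, and ranged from 0 to 7 when 1 library was left out, with 330 to 1628 at an unadjusted p under 0.05. It was 5 without both libraries of day 7 pair no. 1, an alternative chosen after seeing the data. The range on leaving out 1 library was 0 to 10 at day 7 alone, 0 to 2 for MI less sham, 0 to 2 for BZ minus RZ and 0 to 12 for IZ minus BZ. For regions, limma-trend gave 1. With the pool as a fixed replicate block, 0 windows passed and 517 had an unadjusted p under 0.05, and with no replicate block 0 and 309. Of the values of 47 named genes, windows and regions, 157 of 161 kept their direction under the alternatives that kept all libraries, and 270 of 282 on leaving out 1 library. The leading windows and regions among them were chosen for 1 sign in all 3 pairs and a small p. Their kept direction was thus largely set by that choice, and the tally is not a measure of robustness. All exceptions in both sets were list genes. The exceptions in the first set were Adgre1 at 0.03, Lyve1 at 0.12 and Arg1 at -0.02 when only pairs in regions were counted, and Csf1r at -0.02 with the fixed block. That set lacks the check with pairs in regions only for windows with too few such pairs. Among these were S100a8, S100a9, Ly6c2, Spp1, Timd4 and the leading windows higher in the IZ. Leaving out 1 library reversed the direction of 8 genes, whose values ranged from -0.14 to 0.95 for Csf1r, -0.28 to 0.88 for Lyve1, -0.6 to 0.02 for Mrc1, -0.16 to 0.33 for Ly6c2, -0.49 to 0.34 for Ccr2, -0.24 to 0.59 for Arg1, -0.4 to 1.58 for S100a9 and -0.93 to 0.21 for Il1b; the cause was not tested. The medians of 6 gene lists moved too, from -0.29 to 0.40 for classical monocyte genes, and those of the classical monocyte, Arg1 macrophage and hypoxia lists changed sign. Day 7 pair no. 2 limits low windows, since 3 pairs are 32.9 CPM in its IZ and 39.9 in its RZ library.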
